A study of Mus musculus with 11 samples.

Results

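The metallothionein genes Mt1, Mt2 and Mt3 were followed in ribosome-bound RNA from hippocampal astrocytes of mid-age female mice. They were taken by symbol, 3 genes of 39017 gene identifiers counted, and they were chosen by their CPM, a gene's counts scaled to the counts of its library, in the 3 groups, which were already known. Their levels and differences are therefore given below as a description, with no test. The study asked how the loss of ovarian hormones and the loss of estrogen receptor β (ERβ) in astrocytes changed the astrocyte transcriptome at midlife. There were 11 libraries, each from 1 mouse of 12 to 14 months: 3 from WT (sham), 4 from ERβ cKO (sham) and 4 from WT (GDX). Every mouse carried the mGFAP-Cre transgene, inherited from the mother, and the RiboTag allele, which puts an HA tag on the ribosomal protein Rpl22 wherever Cre has acted, so that tagged ribosomes and the RNA on them can be pulled down. WT (sham) mice had a sham operation and an intact Esr2 gene, which encodes ERβ. ERβ cKO (sham) mice had a sham operation and floxed exon 3 of Esr2, removed by the same Cre. WT (GDX) mice had an intact Esr2 gene and were gonadectomized at 2 months. ERβ cKO (sham) and WT (GDX) thus differed from each other in both genotype and gonads.

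Metallothioneins are small proteins, very rich in cysteine, that bind zinc and copper and buffer their free levels in the cell, and they also react with oxidants. Mt1 and Mt2 are made in most tissues and are among the most inducible genes known: zinc acts through the transcription factor Mtf1, which binds metal response elements before the genes, and glucocorticoids, cytokines and oxidative stress induce them too. Mt3 is largely a brain form, first known as a growth inhibitory factor for neurons, and responds little to metals. Mt4, the last member of the mouse cluster, belongs to stratified squamous epithelia. In the brain, astrocytes are a main source of Mt1 and Mt2.

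The 4 genes lie in a row on the plus strand of chromosome 8 in mm10. Mt4 (ENSMUSG00000031757) spans chr8:94137197-94139031, Mt3 (ENSMUSG00000031760) spans chr8:94152607-94154146, Mt2 (ENSMUSG00000031762) spans chr8:94172664-94173568 and Mt1 (ENSMUSG00000031765) spans chr8:94179082-94180327. All are annotated as protein coding. An antisense gene, Gm45774, runs over Mt2 on the minus strand (chr8:94170748-94173412). Of the 462 stretches of 50 bases, the read length, in the main Mt2 transcript, 210 also lie in Gm45774 on the opposite strand. No stretch of Mt1 or Mt3 transcripts was shared with another gene. Gm45774 is not analysed here and the strand setting of the counting is not given in the sources used here, so reads of Mt2 and of its antisense partner cannot be told apart.

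The promoters are shown because they set the members apart before any expression value is read. Each run covers 250 bases before to 50 bases after the RefSeq start site (GRCm38.p6, plus strand), with capitals marking every match to the core of the metal response element, TGCACNC or TGCGCNC on either strand. The windows are chr8:94178839-94179138 for Mt1, chr8:94172368-94172667 for Mt2 and chr8:94152357-94152656 for Mt3.
Mt1: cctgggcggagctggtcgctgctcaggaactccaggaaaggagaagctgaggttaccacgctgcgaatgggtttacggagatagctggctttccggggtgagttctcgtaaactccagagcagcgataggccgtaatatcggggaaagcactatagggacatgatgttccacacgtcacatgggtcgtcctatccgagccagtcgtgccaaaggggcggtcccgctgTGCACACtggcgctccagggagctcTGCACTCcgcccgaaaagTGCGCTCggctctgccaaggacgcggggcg
Mt2: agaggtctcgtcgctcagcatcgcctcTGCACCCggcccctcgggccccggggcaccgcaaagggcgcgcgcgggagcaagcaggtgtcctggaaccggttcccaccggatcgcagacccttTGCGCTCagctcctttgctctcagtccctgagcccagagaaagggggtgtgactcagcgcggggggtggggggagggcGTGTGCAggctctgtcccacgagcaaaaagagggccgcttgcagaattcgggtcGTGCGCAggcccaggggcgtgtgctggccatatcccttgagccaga
Mt3: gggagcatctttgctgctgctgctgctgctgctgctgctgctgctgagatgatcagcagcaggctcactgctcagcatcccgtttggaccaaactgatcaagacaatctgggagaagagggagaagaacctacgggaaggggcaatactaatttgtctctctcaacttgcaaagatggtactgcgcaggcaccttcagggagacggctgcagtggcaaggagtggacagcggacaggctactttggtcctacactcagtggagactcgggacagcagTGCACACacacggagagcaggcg
The Mt2 window held 4 matches and the Mt1 window 3, whereas the Mt3 and Mt4 windows held 1 each. Of 32851 RefSeq promoter windows of this length, 25.7% held at least 1 match, 1.97% held at least 3 and 0.517% held at least 4. In Mt1 the matches began 23 bases before the start site and at bases 2 and 20 after it, and in Mt2 the 4 matches were spread from 223 bases before the start site to base 4 after it. The single match of Mt3 lay after the start site. The Mt2 window alone held the antioxidant response element core, TGACNNNGC, which 12.4% of windows hold. None of the windows of Mt1, Mt2 and Mt3 held the glucocorticoid hexamer AGAACA (19% of windows), its full palindrome with a 3 base spacer (0.00913%), the estrogen response palindrome, which is GGTCA, 3 bases and TGACC (0.07%), the STAT palindrome TTCNNNGAA (8.3%), the E box CACGTG (7.15%) or TATAAA (13.6%). All letters were searched on both strands and the metal and antioxidant cores shared no bases. Start sites of annotated transcripts also lie elsewhere. Downstream of the RefSeq site they are at 122 and 152 bases for Mt1 and 139 for Mt3. The main Mt2 transcript starts 46 bases downstream of that site and another 242. Their own windows were not searched, so before and after refer here to the RefSeq site alone. A match to these letters is a description of the sequence and not a site of binding.

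Library totals ranged from 16956233 to 18190968 counts, so depth was close to equal. Each library held 5096 to 11767 counts of Mt1, 3630 to 8217 of Mt2 and 4658 to 9357 of Mt3. All 3 genes passed the filter on low counts in every comparison, and Mt4 had no count in any library, below the floor of 3 counts. Esr2 had 0 to 4 counts per library in both sham groups and 0 to 7 in WT (GDX), too few to check its deletion. All 15 astrocyte markers were present and summed to 24200 to 40391 CPM, while 10 neuron markers summed to 8262 to 10220 CPM. None of the 11 libraries is of RNA before the pulldown, so these sums cannot show enrichment of astrocyte RNA. Choroid plexus epithelium markers summed to 103 to 339 CPM in the 3 WT (sham) libraries and to 42.4 to 55.9 CPM in the other 8. Ependyma markers summed to 54.6 to 62.1 CPM in WT (sham) and to at most 47.0 in the rest. Meninges and fibroblast markers summed to 135 to 167 CPM in WT (sham) and to at most 130.7 in the rest. These lists set the WT (sham) libraries apart in each comparison that uses them. The WT (sham) mice are the reference of 2 comparisons, so these are not independent of each other.

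The metallothioneins were abundant in this RNA. Per kilobase of all annotated exons and averaged over the 11 libraries, Mt2 ranked at 28, Mt1 at 43 and Mt3 at 46 among 37607 named genes. In WT (sham) the levels on that scale were 453 ± 31.9 CPM per kilobase for Mt2, 374 ± 47.2 for Mt1 and 369 ± 20.8 for Mt3 (SD, n = 3). The order of the 3 genes depended on the length used. Per kilobase of the main spliced transcript it was 848 ± 107 for Mt1, 734 ± 41.5 for Mt3 and 521 ± 36.7 for Mt2. The order between genes is therefore not read further, and the comparisons below are within a gene.

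Mt1, one of the pair of metal-inducible forms, stood at 532, 419.8 and 445 CPM in WT (sham) mice F1, F3 and F4. It was at 326, 297, 420.1 and 494 CPM in ERβ cKO (sham) mice F1, F3, F4 and F5. In WT (GDX) mice F1 to F4 it was at 615, 671, 635 and 596 CPM. Every WT (GDX) library lay above every library of both sham groups, and the 2 sham groups overlapped, with ERβ cKO (sham) F1 and F3 below all WT (sham) libraries and F4 and F5 inside their range. The group means were 465 ± 58.8, 384 ± 90.3 and 629 ± 32.1 CPM (SD, n = 3, 4 and 4).

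Mt2, the other inducible form, was at 269, 247 and 284 CPM in WT (sham) mice F1, F3 and F4. In ERβ cKO (sham) mice F1, F3, F4 and F5 it was at 218, 211, 272 and 295 CPM. In WT (GDX) mice F1 to F4 it reached 452, 454, 471 and 361 CPM. The WT (GDX) libraries were again above all others, although F4 fell well below the other 3 of its group, and the sham groups overlapped. The means were 266 ± 18.8, 249 ± 40.7 and 435 ± 49.9 CPM.

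Mt3, the brain form, was at 418, 374 and 389 CPM in WT (sham) mice F1, F3 and F4. It was at 269, 271, 337 and 452 CPM in ERβ cKO (sham) mice F1, F3, F4 and F5. In WT (GDX) mice F1 to F4 it was at 491, 498, 479.7 and 530.3 CPM. WT (GDX) libraries were once more the highest without overlap, and the ERβ cKO (sham) group ran from below to above the WT (sham) range. The means were 394 ± 22.2, 332 ± 85.7 and 499.7 ± 21.7 CPM.

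**Figure D1:**
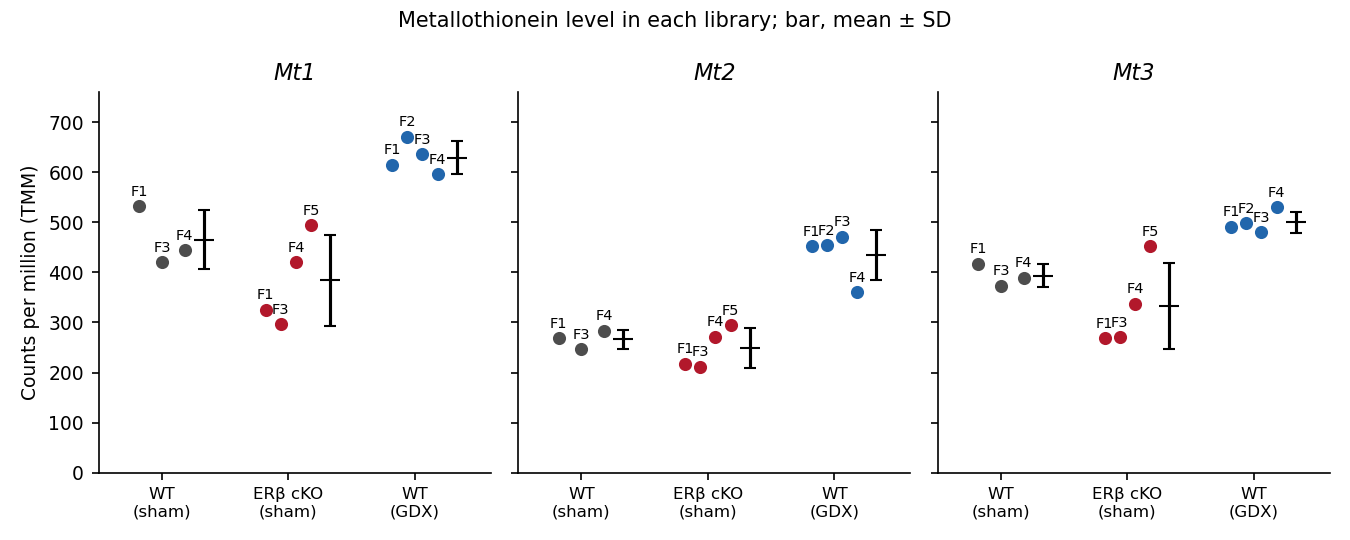
Level of Mt1, Mt2 and Mt3 in CPM for each of the 11 libraries, labelled by mouse number, with the group mean ± SD beside the points. The 4 WT (GDX) libraries lie above every sham library for each gene, and the ERβ cKO (sham) libraries spread widely, with F1 and F3 low.

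The order of the groups was the same for the 3 genes, WT (GDX) above WT (sham) above ERβ cKO (sham) by their means. WT (GDX) lay apart from both sham groups without overlap, and the sham groups overlapped for all 3 genes. Of all genes tested, 5.09% were higher without overlap in WT (GDX) than in WT (sham). In ERβ cKO (sham) against WT (GDX), 4.88% were lower without overlap. The levels chose the genes, so nothing is read from this. The spread between mice was unequal. The coefficient of variation was 16.4% to 25.8% in ERβ cKO (sham), 4.35% to 11.5% in WT (GDX) and 5.65% to 12.6% in WT (sham). In ERβ cKO (sham) the highest library held 1.67 times the lowest for Mt1, 1.39 times for Mt2 and 1.68 times for Mt3, and the same mice, F1 and F3, were the lower pair for each gene.

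Long-term gonadectomy came with higher levels of the whole expressed family. Against WT (sham), WT (GDX) had a log2 fold change of 0.70 (SE 0.096) for Mt2, 0.43 (SE 0.092) for Mt1 and 0.34 (SE 0.084) for Mt3, from edgeR's fit over all genes. In linear terms these are ratios of 1.63, 1.35 and 1.27. Leaving out each library in turn kept Mt2 between 0.65 and 0.79, Mt1 between 0.36 and 0.54 and Mt3 between 0.31 and 0.39. The 3 members were higher without overlap, as were 5.09% of the 19695 genes tested, and since the levels chose the genes nothing is read from that count. Against WT (sham), 86 genes, 0.437% of those tested, passed an adjusted p of 0.1 in edgeR's quasi-likelihood test, 64 of them higher and 22 lower.

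Deletion of ERβ in astrocytes came with no separation of the metallothioneins from WT (sham). The log2 fold change of ERβ cKO (sham) against WT (sham) was -0.28 (SE 0.16) for Mt1, -0.24 (SE 0.16) for Mt3 and -0.10 (SE 0.13) for Mt2. The values stayed below 0 when each library was left out, from -0.42 to -0.16 for Mt1, from -0.43 to -0.14 for Mt3 and from -0.19 to -0.02 for Mt2. The groups overlapped for all 3 genes, with 3 and 4 mice and the wide spread among the ERβ cKO (sham) mice. Of 19938 genes tested here, 2.95% were lower without overlap and 6 genes, 0.0301%, passed the adjusted p of 0.1. Of the 6, 3 were higher and 3 lower. The 3 lower were all markers of choroid plexus epithelium, whose summed level was high in WT (sham).

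The largest differences were between ERβ cKO (sham) and WT (GDX), a comparison that does not use the WT (sham) mice. Mt2 was lower in ERβ cKO (sham) by a log2 fold change of -0.81 (SE 0.12), Mt1 by -0.72 (SE 0.14) and Mt3 by -0.60 (SE 0.14), ratios of 0.569, 0.606 and 0.66. Leaving out each library gave -0.91 to -0.74 for Mt2, -0.87 to -0.61 for Mt1 and -0.79 to -0.50 for Mt3, the strongest values without ERβ cKO (sham) F5. All 3 were lower without overlap, as were 4.88% of 19759 genes, and nothing is read from that count either. Here 820 genes, 4.15%, passed the adjusted p of 0.1, 439 lower and 381 higher in ERβ cKO (sham).

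**Figure D2:**
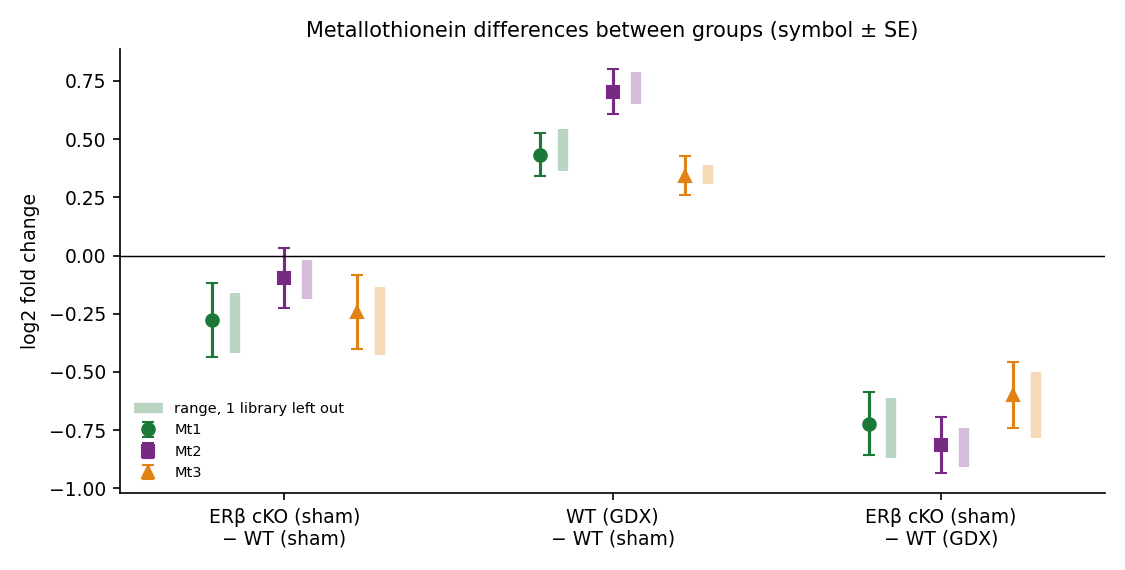
Log2 fold change of Mt1, Mt2 and Mt3 in the 3 comparisons, each symbol with its standard error and a pale bar for the range when 1 library at a time was left out. All values against WT (sham) lie above 0 for WT (GDX), and Mt2 has the largest at 0.70; ERβ cKO (sham) lies between -0.28 and -0.10 against WT (sham) and between -0.81 and -0.60 against WT (GDX).

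The summed level of the family was 1125 ± 89.2 CPM in WT (sham), 965 ± 214 in the ERβ cKO (sham) mice and 1563 ± 57.7 in WT (GDX). Its makeup moved less than its total. Mt1 gave 41.3% of the sum in WT (sham), 39.7% in the ERβ cKO (sham) mice and 40.2% in WT (GDX). Mt2 gave 23.7% ± 1.67, 26.03% ± 1.55 and 27.7% ± 2.42, and Mt3 gave 35.0% ± 0.838, 34.3% ± 1.69 and 32.0% ± 2.49 in the same order. The ranges of these shares overlapped between WT (GDX) and both sham groups. The ratio of Mt2 to Mt1 counts was 0.505 to 0.639 in WT (sham), 0.596 to 0.712 in the ERβ cKO (sham) mice and 0.606 to 0.741 in WT (GDX). WT (GDX) F4 departed from its group in both directions, with the lowest Mt2 share, 24.3%, and the highest Mt3 share, 35.7%, close to the makeup in the sham mice.

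Across the 11 libraries the 3 genes varied together. The Pearson correlation of log2 CPM was 0.96 for Mt1 with Mt3, 0.92 for Mt1 with Mt2 and 0.86 for Mt2 with Mt3, and Spearman's rho was 0.91, 0.94 and 0.86. Without the 2 libraries farthest from the median of the first gene the Pearson values were 0.91, 0.91 and 0.87. The libraries share their groups, their scaling and their content of astrocyte RNA, so deviations from the group means were taken as well, which gave 0.89, 0.80 and 0.64. Mt2 and Mt3 were thus the least alike pair, and these values are descriptions with no test.

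**Figure D3:**
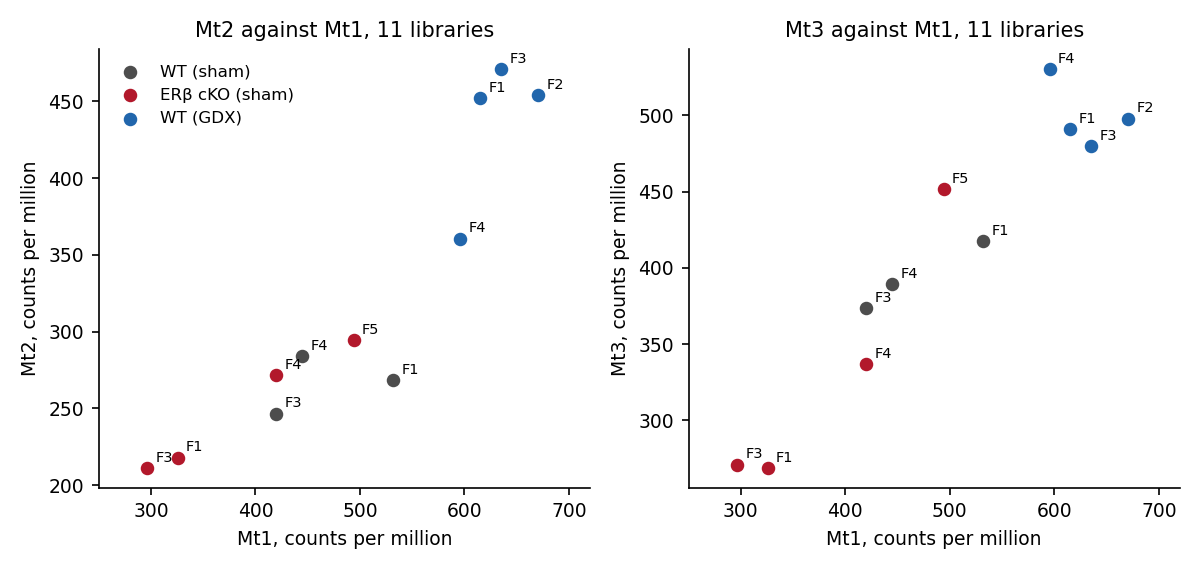
Mt2 and Mt3 against Mt1 in CPM, 1 point for each of 11 libraries, coloured by group and labelled by mouse number. The points climb together, from ERβ cKO (sham) F1 and F3 at the bottom to WT (GDX) at the top, with WT (GDX) F4 low for Mt2 and high for Mt3.

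The genes whose pattern was most like that of the members were sought among 12122 genes with a mean of at least 5 CPM. With the mean of Mt1 and Mt2, the 5 highest correlations over the 11 libraries, 0.96 to 0.97, were those of Thrsp, a thyroid hormone responsive gene of lipid synthesis, 4833439L19Rik, Carhsp1, the growth factor gene Fgf1 and Pdk2, a kinase that inhibits pyruvate dehydrogenase. Thrsp, the first of them, was at 115 ± 11.4 CPM in WT (sham), 94.98 ± 19.7 in the ERβ cKO (sham) mice and 180.4 ± 15.5 in WT (GDX). Within groups, as deviations from the group means, these 5 genes had correlations of 0.85 to 0.97. The 3 lowest were Nfx1, Capn7 and Trpc6, at -0.94 to -0.91. Mt3 stood at rank 41 in this order, with 0.93.

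With Mt3, the 5 highest correlations were 0.98 to 0.99 and belonged to Plekhb1, the LIM domain gene Csrp1, the chemokine gene Cxcl14, Acsbg1, which activates long-chain fatty acids, and Npc2, a cholesterol carrier of lysosomes. Plekhb1 was at 496 ± 38.7 CPM in WT (sham), 426 ± 98.6 in the ERβ cKO (sham) mice and 584 ± 19.7 in WT (GDX). Their correlations of deviations from the group means were 0.95 to 0.98. The lowest were Pde4dip, Capn7 and Tub, at -0.95. Mt1 stood at rank 21 for Mt3 and Mt2 at rank 373, so many genes were nearer to Mt3 in this order than Mt2 was.

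The astrocyte markers moved the same way as the metallothioneins. In bulk samples, fewer cells of a type and less RNA per cell cannot be told apart. The 15 markers summed to 27710 to 32005 CPM in WT (sham), 24200 to 29042 in the ERβ cKO (sham) mice and 33759 to 40391 in WT (GDX). The WT (GDX) range lay above both sham ranges, as it did for Mt1, Mt2 and Mt3, and ERβ cKO (sham) F1 and F3 had the lowest sums of all libraries. The correlation of the sum with Mt2 was 0.93, with Mt1 0.90 and with Mt3 0.87 over the 11 libraries.

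Marker by marker, 14 of 15 had a positive log2 fold change in WT (GDX) against WT (sham), with a median of 0.23, against a median of -0.01 over all genes. Of these, 3 of 15 passed the test as higher, where 0.325% of all genes did: Gjb6, a gap junction gene (0.55, adjusted p = 0.0112), S100b, a calcium-binding protein gene (0.43, adjusted p = 0.0334), and Glul, the glutamine synthetase gene (0.43, adjusted p = 0.0496). All 15 were negative for the knockout against WT (GDX), with a median of -0.46, and 11 of 15 passed as lower, where 2.22% of all genes did. All 15 were also negative between the sham groups, with a median of -0.17, and 0 passed in edgeR's or DESeq2's test. There 3 of 15 had an unadjusted p under 0.05, as did 5.33% of all genes. The count of markers called in WT (GDX) against WT (sham) was 0 without WT (sham) F3 and 8 without WT (sham) F4, and for the knockout against WT (GDX) it was 3 without WT (GDX) F3 and 14 without ERβ cKO (sham) F5. In WT (GDX) against WT (sham), edgeR's test called 0 markers with all 3 groups in 1 fit and 0 with the choroid plexus covariate described below, with 6 and 4 at an unadjusted p under 0.05.

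Set against the marker sum, the members differed in whether the groups overlapped. Mt2 was 0.887% to 0.927% of the sum in WT (sham), 0.872% to 1.02% in the ERβ cKO (sham) mice and 1.03% to 1.34% in WT (GDX). WT (GDX) did not overlap with the sham groups. The margin was narrow, with 1.028% in its lowest library and 1.017% in the highest ERβ cKO (sham) library. The share of all genes that stay apart on this scale was not computed, so nothing is read from it. Mt1 was 1.58% ± 0.23 in WT (sham), 1.43% ± 0.205 in the ERβ cKO (sham) mice and 1.76% ± 0.157 in WT (GDX), and Mt3 was 1.34% ± 0.113, 1.24% ± 0.216 and 1.40% ± 0.143, with overlap between all groups for both genes. Slc1a2 and Glul made up 36.7% and 23.6% of the sum, so that it rests largely on them.

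With the mean log2 CPM of the markers as a term in the fit, an alternative added after the data had been seen, the log2 fold change in WT (GDX) against WT (sham) was 0.49 (SE 0.17) for Mt2, 0.44 (SE 0.17) for Mt1 and 0.38 (SE 0.15) for Mt3. Without the term these were 0.70, 0.43 and 0.34, so only Mt2 was lower with it. Between ERβ cKO (sham) and WT (GDX) the log2 fold change with the term was -0.26 (SE 0.20) for Mt2, -0.03 (SE 0.19) for Mt1 and 0.12 (SE 0.19) for Mt3. With this term 11 genes passed in WT (GDX) against WT (sham), 3 of them among the 86 called without it, and 2 genes passed in ERβ cKO (sham) against WT (GDX), 1 of them among the 820. None of the list genes described below that passed in either comparison kept its call with the term. The marker term and the groups moved together, and the markers' part in the result was not tested.

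**Figure D4:**
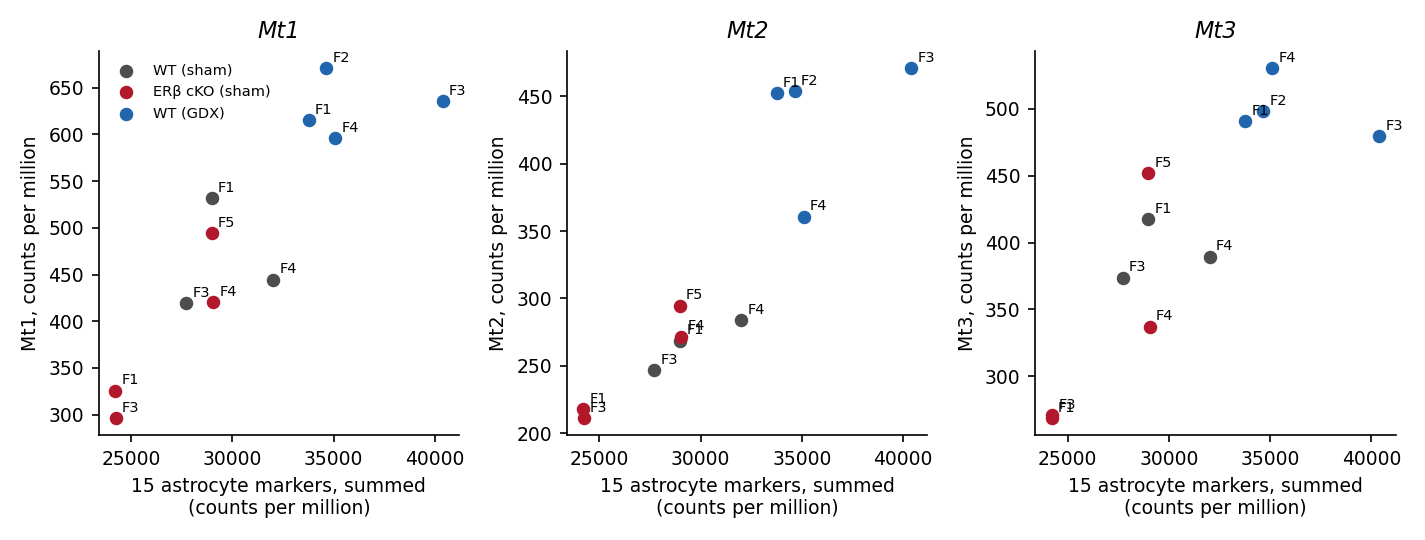
Mt1, Mt2 and Mt3 in CPM against the summed level of 15 astrocyte markers in CPM, 1 point for each of 11 libraries. Members and marker sum climb together, with ERβ cKO (sham) F1 and F3 lowest in both and the 4 WT (GDX) libraries highest in both.

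Of the other 8 marker lists, none had group medians of the summed level in the order WT (GDX), WT (sham), ERβ cKO (sham). Endothelium and pericyte markers summed to 218 to 270.2 CPM in ERβ cKO (sham) and 109.8 to 192 in WT (GDX). Between these groups that is the reverse of the metallothioneins. In WT (sham) they summed to 109.8 to 229 CPM, which overlapped with both. Microglia markers overlapped in all groups at 47.2 to 63.5 CPM. Choroid plexus markers, high in WT (sham), were negative in 8 of 8 tested genes in WT (GDX) against WT (sham). Of these, 6 passed as lower, as did 1 of 8 ependyma markers and 2 of 7 meninges and fibroblast markers. Of all 19695 genes tested there, 22 passed as lower. With the mean of the choroid plexus markers as a term in the fit, the log2 fold change in that comparison was 0.90 (SE 0.25) for Mt2, 0.10 (SE 0.21) for Mt3 and 0.04 (SE 0.22) for Mt1. Between ERβ cKO (sham) and WT (GDX), where the choroid plexus sums overlap, the same term left Mt2 at -0.84, Mt1 at -0.76 and Mt3 at -0.63. As the WT (sham) libraries do not overlap with the rest in these markers, their part in the comparisons with WT (sham) was not tested.

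Zinc handling was looked at next, since zinc both binds to and induces metallothioneins. Of 24 zinc transporter genes, 23 were tested and 0 passed in any comparison by edgeR's test without added terms. At an unadjusted p under 0.05 there were 0 for either comparison with WT (sham), where 5.33% of all genes for ERβ cKO (sham) and 7.98% for WT (GDX) had such a p, and 2 of 23 for ERβ cKO (sham) against WT (GDX), where 17.2% of all genes did. DESeq2 called 1 in the last comparison, where it called 1628 of 19759 genes, and 0 in the others. In the last comparison edgeR's test called 4 of 23 with mouse number as a term in the fit (the replicate block). Of all 19759 genes, 3117 passed in that fit. With the choroid plexus covariate it called 1 there, Slc39a2 (adjusted p = 0.0686), among 1108 genes. Leaving out WT (sham) F4 gave 1 call for the knockout against WT (sham), where 67 of 20600 genes passed. Leaving out ERβ cKO (sham) F5 gave 3 for the knockout against WT (GDX), where 2450 of 20023 genes passed. The list's median log2 fold change was 0.01 for WT (GDX) and -0.07 for the knockout, both against WT (sham), and -0.10 for the knockout against WT (GDX). The smallest p belonged to Slc39a12, a zinc importer of astrocytes, at 145.8 ± 16.4 CPM in WT (GDX) and 118 ± 9.21 in ERβ cKO (sham) (log2 fold change -0.31, adjusted p = 0.115). Slc39a2, Slc30a9 and Slc39a1, the next, had adjusted p of 0.262 to 0.303. Slc30a1, the zinc exporter of the cell surface and a known target of Mtf1, is named for that role after its values were seen. It was at 42.1 ± 5.33 CPM in WT (sham), 37.9 ± 4.69 in the ERβ cKO (sham) mice and 39.0 ± 3.45 in WT (GDX), and the groups overlapped.

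Of 26 copper and iron genes 24 were tested. By edgeR's test 0 passed in either comparison with WT (sham). There were 2 of 24 in each at an unadjusted p under 0.05. Such a p was held by 5.33% of all genes for ERβ cKO (sham) and 7.98% for WT (GDX). DESeq2 called 1 in WT (GDX) against WT (sham), where it called 206 of 19695 genes. Against WT (GDX), with 1.93% of all genes higher in ERβ cKO (sham), Cp, the gene of the copper-carrying ferroxidase ceruloplasmin, was among the higher genes (log2 fold change 0.70, adjusted p = 0.0852). Ncoa4, which directs ferritin to breakdown, was lower there (-0.78, adjusted p = 0.0979). Both were low in level, under 10 CPM, and leaving out 1 library kept the call of Cp in 1 of 8 cases and that of Ncoa4 in 2. Of all genes 2.22% were lower there, and with the astrocyte marker term both calls were lost (adjusted p of 0.904 and 0.905).

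The regulators of metallothioneins were taken next. Mtf1, named for its role after its values were seen, was at 78.9 ± 8.60 CPM in WT (sham), 75.8 ± 2.98 in the ERβ cKO (sham) mice and 78.6 ± 2.56 in WT (GDX), with log2 fold changes of -0.06 for the knockout and -0.01 for WT (GDX), each against WT (sham), and -0.06 between the knockout and WT (GDX). The list of 19 genes also holds the glucocorticoid receptor gene, STAT factors and cytokine receptors. By edgeR or DESeq2, 0 passed in either comparison with WT (sham). At an unadjusted p under 0.05 there was 1 for the knockout and 2 for WT (GDX). Of all genes, 5.33% and 7.98% had such a p. Il6st, the shared receptor chain of interleukin 6 cytokines, was lower in ERβ cKO (sham) than in WT (GDX) (-0.36, adjusted p = 0.0976), where 2.22% of all genes were lower. This call held in 2 of 8 cases when 1 library was left out, and with the astrocyte marker term the log2 fold change was -0.0099 (SE 0.21, adjusted p = 0.997).

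Among 36 antioxidant genes, 1 was higher in WT (GDX) than in WT (sham), where 0.325% of all genes were. It was Txnip, whose product inhibits thioredoxin (0.81, SE 0.14, adjusted p = 0.00889). It was at 34.7 ± 5.07 CPM in WT (GDX), 19.8 ± 3.13 in WT (sham) and 19.6 ± 3.16 in ERβ cKO (sham). Against WT (GDX), where 2.22% of all genes were lower in the knockout, 2 were lower, Txnip (-0.84, SE 0.14, adjusted p = 0.0108) and Selenop, a selenium carrier (-0.72, SE 0.13, adjusted p = 0.0186). These calls held without any 1 library. The call against WT (sham) was lost with the choroid plexus covariate, at 0.66 (SE 0.40, adjusted p = 0.518). With the astrocyte marker term Txnip was 0.93 (SE 0.27, adjusted p = 0.387) against WT (sham), and in the knockout against WT (GDX) it was -0.94 (SE 0.31, adjusted p = 0.719) and Selenop -0.24 (SE 0.24, adjusted p = 0.892). The signs of the list leaned to one side, with 27 of 36 positive and a median of 0.09 in WT (GDX) against WT (sham), and 34 of 36 negative and a median of -0.20 for the knockout against WT (GDX). The count called in the second comparison rose to 17 without ERβ cKO (sham) F5, where 2450 of 20023 genes passed. Against WT (sham), 31 of 36 in the knockout were negative and 0 passed by edgeR or DESeq2. There 2 of 36 had an unadjusted p under 0.05, as did 5.33% of all genes.

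The glucocorticoid responsive genes, which share an inducer with Mt1 and Mt2, held the most calls of the 5 lists that hold no cell type markers. In WT (GDX) against WT (sham), 4 of 24 were higher, 16.7% against 0.325% of all genes tested, and 20 of 24 were positive with a median of 0.36. They were Pdk4, a kinase that inhibits pyruvate dehydrogenase (0.77, SE 0.12, adjusted p = 0.00331), the transcription factors Zbtb16 (0.44, adjusted p = 0.0573) and Klf9 (0.35, adjusted p = 0.0927), and Mertk, a phagocytic receptor of astrocytes (0.45, adjusted p = 0.0573). Pdk4 kept its call without any 1 library, Mertk lost it without WT (sham) F3 or WT (GDX) F3, and Zbtb16 and Klf9 each kept it in 2 of 7 cases. Tsc22d3, a classical glucocorticoid target, had a log2 fold change of 1.38 there that did not pass (SE 0.23, adjusted p = 0.133). The count over the list was 1 without WT (sham) F3 and 11 without WT (GDX) F4. With the choroid plexus covariate 2 genes of the list passed, and of the 4 only Pdk4 did (adjusted p = 0.0822). With the astrocyte marker term the 4 had log2 fold changes of 0.69 for Pdk4, 0.42 for Zbtb16, 0.35 for Klf9 and 0.13 for Mertk, and adjusted p of 0.399 to 0.853.

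Against WT (GDX), 7 of the 24 were lower in ERβ cKO (sham), 29.2% against 2.22% of all genes. The largest were Tsc22d3 (-0.95, SE 0.17, adjusted p = 0.0259), Pdk4 (-0.90, SE 0.15, adjusted p = 0.0135) and Sult1a1, a sulfotransferase gene (-0.89, SE 0.19, adjusted p = 0.0395). Mertk (-0.48), Ddit4 (-0.44), Htra1 (-0.49) and Klf9 (-0.29) had adjusted p of 0.0395 to 0.0914. The count was 2 without ERβ cKO (sham) F3, and Pdk4 alone of the 7 held in all 8 cases. With the astrocyte marker term none of the 7 passed, and 4 genes of the list had an unadjusted p under 0.05. Tsc22d3 was then -0.70 (SE 0.42), Sult1a1 -0.31 (SE 0.38) and Pdk4 -0.12 (SE 0.24), and Htra1 turned to 0.17 (SE 0.17). Between the sham groups the list had a positive median, 0.15, unlike the metallothioneins, and 0 genes passed. At an unadjusted p under 0.05 there were 4 of 24, where 5.33% of all genes had such a p. DESeq2 called 1 there, where it called 52 of 19938 genes. The list was chosen with earlier results of these libraries known and its counts are not independent evidence.

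**Figure D5:**
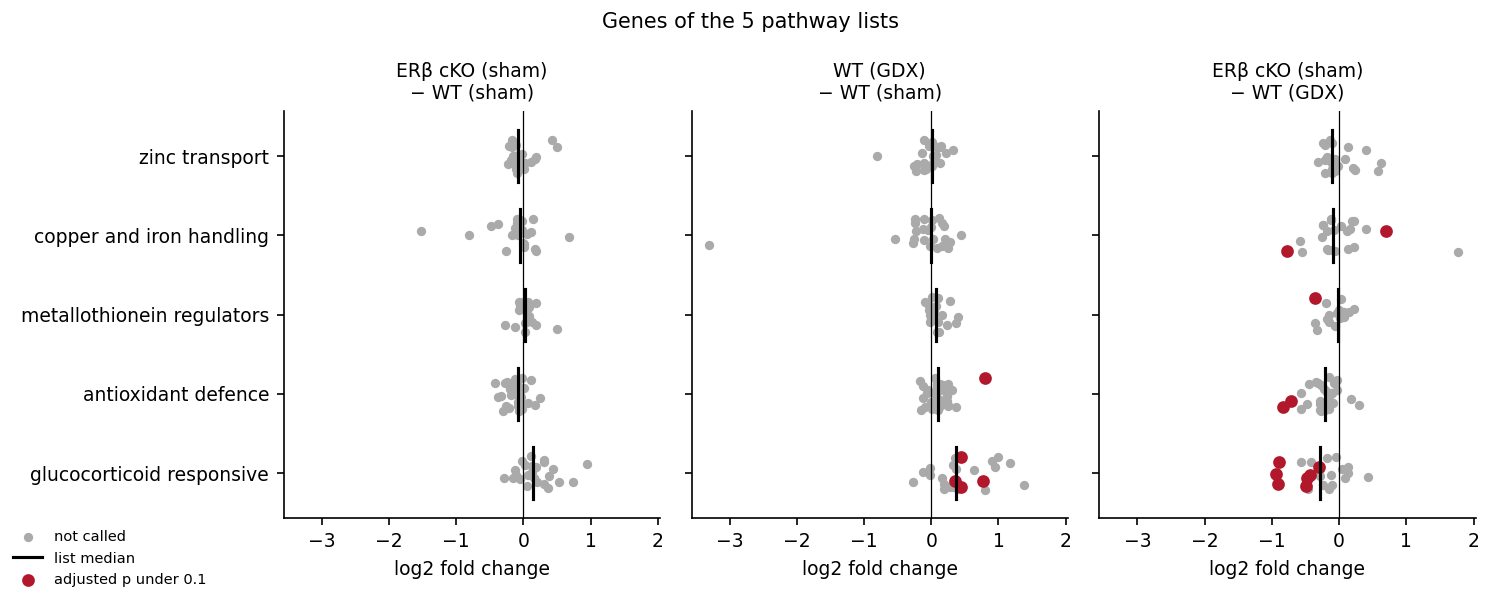
Log2 fold change of each tested gene of the 5 lists (horizontal axis) in the 3 comparisons, with genes past an adjusted p of 0.1 in red and the list median as a black line. No gene is red between the sham groups; the glucocorticoid responsive genes have a median of 0.36 in WT (GDX) against WT (sham) and of -0.28 in ERβ cKO (sham) against WT (GDX).

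The neighbours of the cluster were looked at last. Within 200 kb of Mt1, Nudt21, Ogfod1, Bbs2 and Nup93 were tested in every comparison and none of these passed in edgeR's or DESeq2's test. At an unadjusted p under 0.05 there were 0 against WT (sham) and 2 between the knockout and WT (GDX). Of all genes, 17.2% had such a p in the latter comparison. Slc12a3, tested once, had at most 3 counts. Against WT (sham), the log2 fold change in WT (GDX) was 0.02 for Nudt21, -0.06 for Ogfod1, -0.02 for Bbs2 and -0.07 for Nup93, with adjusted p of 0.911 to 0.989. The remaining neighbouring genes had at most 7 counts in a library or are not analysed here.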

How the data were processed

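RNA on HA-tagged ribosomes was pulled down from the hippocampus of 11 mice, 1 library each. The authors made stranded libraries, sequenced single-end 50 base reads, demultiplexed by bcl2fastq 2.17, used FastQC for quality and Trimmomatic for cleaning, and let QuasR align to mm10 and count by gene. What they deposited is a table of whole-number counts for Ensembl genes, without normalization. How the counting treated strand and reads with several matches, and which annotation it used, is not given in the sources used here. GENCODE M21 gave symbols for 37607 of 39017 identifiers, and the 1410 others held 0.515% of counts.

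Groups came from the sample labels. For each pair of groups, only those libraries were fitted, and a gene was dropped where more than 3 of them had a count below 1. Counts were normalized by TMM and tested with edgeR's robust quasi-likelihood test (edgeR 4.0.16, limma 3.58.1, R 4.3.3), with Benjamini-Hochberg adjustment over all genes tested and a threshold of 0.1. The script was tested on simulated data with known changes. CPM and log2 CPM (prior count 2) used TMM factors over all 11 libraries. P-values measure the spread between mice of a group. The floor of 3 counts covers counting error only.

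The members and the lists were chosen with earlier results of these data known. Genes are named by a rule: Mt1 to Mt4, list genes past the threshold or, where a list had none in a comparison, up to 4 with the smallest p, genes within 200 kb of Mt1 (1 is not reported here), the 5 most and 3 least correlated genes, and Esr2. Alternatives were DESeq2 1.42.0 as test and as size factors, library size alone, other filters, a threshold of 0.05, no robust option, all 3 groups in 1 fit, a replicate block, marker covariates, a prior count of 0.5 and leaving out each library. Promoter windows came from RefSeq tables of GRCm38.p6, which held all 4 metallothionein genes.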

Additional observations from a re-analysis of the deposited data

Results flagged for a closer look

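The level of Mt2 in WT (GDX) F4, 361 CPM, lay far below the other 3 libraries of its group, at 452 to 471 CPM. Its gap to the nearest of them was 0.830 of the group's whole range, barely past the limit used to pick out such libraries. The levels chose the genes, so this is a description and no test. Such a gap turns up by accident in about 1 in 20 groups, and 6 groups of 4 libraries were looked at. In the same library Mt1 was the lowest of its group, 596 CPM, and Mt3 the highest, 530.3 CPM. Without it the log2 fold change of Mt2 in WT (GDX) against WT (sham) was 0.79.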

How the results depend on the processing

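The log2 fold changes of Mt1, Mt2 and Mt3 kept their sign in the 3 comparisons under other normalizations, filters and tests, the replicate block, a prior count of 0.5 and leaving out any library. The size of the differences between the sham groups was less stable. The replicate block put Mt1, Mt2 and Mt3 there at -0.43, -0.19 and -0.43, and they were -0.42, -0.19 and -0.43 without ERβ cKO (sham) F5, -0.17, -0.025 and -0.16 without F3 and -0.19, -0.020 and -0.14 without F1 of that group. Mt1 was -0.16 without WT (sham) F1 and Mt2 was -0.039 without WT (sham) F4. With the choroid plexus covariate, Mt2 turned to 0.14 between the sham groups, and Mt1, Mt2 and Mt3 moved to 0.040, 0.90 and 0.10 in WT (GDX) against WT (sham). With the astrocyte marker covariate, Mt2 and Mt3 turned to 0.13 and 0.040 and Mt1 moved to -0.010 in the first comparison, Mt2 moved to 0.49 in the second, and Mt1, Mt2 and Mt3 were -0.027, -0.26 and 0.12 in ERβ cKO (sham) against WT (GDX). The cause was not tested. Correlations between members ranged from 0.83 to 0.97 when a library was left out.

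Counts of genes called depended on the settings. For ERβ cKO (sham) against WT (sham), the 6 genes became 39 with no filter, 52 by DESeq2, 10 without the robust option, 16 with all 3 groups in 1 fit, 0 with the choroid plexus covariate and 7 to 67 with a library left out, and the 0 list genes became 1 by DESeq2 and 0 to 1 with a library left out. For WT (GDX) against WT (sham), the 86 genes became 36 at an adjusted p of 0.05, 289 with no filter, 53 with filterByExpr, 206 by DESeq2, 25 with all 3 groups in 1 fit, 316 with the choroid plexus covariate, 11 with the astrocyte marker covariate and 11 to 275 with a library left out, and the 5 list genes became 2, 15, 3 and 12 under the first 4 of these, 0 with the astrocyte marker covariate and 2 to 12 with a library left out. For ERβ cKO (sham) against WT (GDX), the 820 genes became 229 at 0.05, 1628 by DESeq2, 2 with the astrocyte marker covariate and 104 to 2450 with a library left out, and the 12 list genes 7, 22, 0 and 4 to 35. The mouse numbers have no stated link between groups, and the mice were not treated as pairs. Same-numbered mice had correlations of deviations of -0.162 to 0.104. With so few mice these values cannot settle whether such mice shared a litter or a day. With the replicate block the counts were 76, 101 and 3117 genes and 1, 7 and 38 list genes, and not every library correlated best with its own number.

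Values of genes outside the family changed sign. With the choroid plexus covariate Nudt21 was 0.22 between the sham groups, and Bbs2 and Nup93 were 0.15 and 0.21 in WT (GDX) against WT (sham), where library size alone put Nudt21 at -0.0014. With the astrocyte marker covariate Mtf1, Nudt21, Ogfod1 and Slc12a3 were 0.26, -0.077, 0.0083 and -0.93 in WT (GDX) against WT (sham), and Htra1, Nup93, Slc39a1 and Slc39a12 were 0.17, -0.13, 0.22 and 0.063 in ERβ cKO (sham) against WT (GDX). With a library left out, Mtf1 ranged from -0.14 to 0.0082 between the sham groups, and in WT (GDX) against WT (sham) Mtf1 ranged from -0.089 to 0.053, Bbs2 from -0.12 to 0.072, Nudt21 from -0.13 to 0.11 and Nup93 from -0.22 to 0.062. Over all alternatives for genes named outside the members, 551 values kept their sign and stayed called or stayed not called. These include genes not called to begin with, which had no call to lose. Another 103 values lost the call, 8 gained it and 23 turned sign, with or without a change of call.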
